A study of Mus musculus with 90 samples.

Results

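Neat1, Malat1, Gas5, Snhg1, Snhg8 and Snhg12 are 6 long noncoding RNAs that were followed here through the livers of mice on night-restricted feeding. They were taken by name as RNAs kept in the nucleus or hosting small nucleolar RNAs (snoRNAs), by a rule that uses no measured value. Of the 24312 gene symbols in the expression table, 5 of the 6 had a row, because the name tables used here pair no identifier of the table with Gas5. Each symbol was represented by the RefSeq identifier with the highest mean: NR_003513 for Neat1, NR_002847 for Malat1, NR_002896 for Snhg1, NR_028574 for Snhg8 and NR_029468 for Snhg12.

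The study asked how a meal after the resting phase changes liver transcription, and what glucocorticoid and insulin signaling contribute. RNA was sequenced from 54 livers in 5 experiments, and occupancy of the glucocorticoid receptor (GR) and FOXO1 and DNase I-hypersensitive sites (DHSs) were mapped in parallel. Values are RPKM, reads per kilobase of transcript scaled to the mapped reads of the library, as the authors deposited them. Times are hours of zeitgeber time (ZT), with lights off at ZT12.

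In the first experiment, uninjected C57BL/6 mice (C57BL/6N per the methods) were killed at ZT10, at ZT14 without food or at ZT14 after food from ZT12, with 2 livers per group and RNA freed of ribosomal RNA. The other 48 libraries were made from poly(A) RNA. In the second experiment, C57BL/6 mice, again C57BL/6N, received vehicle, dexamethasone (dex, a synthetic glucocorticoid, 1 mg/kg), the insulin receptor antagonist S961 or both shortly before the meal, and all were fed except a vehicle-injected unfed group, with 4 livers per group. In the third, unfed Nr3c1 fl/fl mice carried adeno-associated virus with GFP or with CRE (L-GRKO), 4 livers each, the virus being given 2 weeks before the feeding schedule per the labels and 12 days before it per the methods. In the fourth, Irs1 and Irs2 fl/fl mice without or with Alb-Cre (L-IRSdKO), 4 livers each, were all fed and all dex-injected. In the fifth, mice on chow (lean) or on high-fat diet for 10 weeks (obese) were killed unfed or fed at ZT14, with 3 livers per group. The methods name no strain in the diet section, and the study's discussion speaks of C57BL/6 for diet-induced obese mice. Per the methods, the mice were 10 weeks old in the uninjected, injected and IRS experiments and adult in the Nr3c1 experiment, and the diets began at 5 weeks of age. The labels give a C57BL/6 background for both floxed lines, which the methods specify as C57BL/6N for Nr3c1 fl/fl and C57BL/6J for L-IRSdKO, and all mice were trained to night-restricted feeding. The TBG promoter of the viruses and the albumin promoter of Alb-Cre act in hepatocytes, so other liver cells keep their alleles, and all libraries come from whole liver.

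The deposited values fitted their labels in part. Nr3c1, which encodes GR, averaged 4.41 RPKM in L-GRKO livers and 14.2 in GFP controls (log2 fold change −1.58, SE 0.12, limma adjusted p = 6.8e-05). Irs1 averaged 0.199 RPKM in L-IRSdKO livers and 4.03 in floxed controls (−2.66, SE 0.25, limma adjusted p = 0.00092). Irs2 averaged 0.773 against 2.19 RPKM and did not pass the test (−0.79, SE 0.50, limma adjusted p = 0.31). The depth implied by the smallest steps in the values had medians of 29.7, 10.5, 37.7, 3.75 and 21.1 in units of 1000000 reads in the 5 experiments, in the order given above. For the IRS libraries the study lists larger read numbers than the steps imply, and for the Nr3c1 fl/fl libraries smaller ones, so the implied depths of both are uncertain. The IRS experiment stood apart from the rest: its 10 most abundant genes held 1.82% to 2.09% of the summed RPKM against 17.7% to 27.6% elsewhere, its 5 hepatocyte markers summed to 2300 to 2880 RPKM against 29900 to 76300 elsewhere, and its median gene lay at 14.9 to 16.5 RPKM against 4.53 to 8.87 elsewhere. Levels were therefore set side by side across experiments only as description.

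Neat1 is the architectural RNA of paraspeckles, nuclear bodies that hold SFPQ, NONO and PSPC1 and retain some RNAs in the nucleus. It is made as a short polyadenylated isoform and a long isoform whose end lacks a poly(A) tail. Malat1 is an abundant RNA of nuclear speckles, the compartments that store splicing factors, and it ends in a structure that replaces the poly(A) tail. Gas5 and the Snhg genes are spliced RNAs whose introns are processed into snoRNAs, which guide the modification of ribosomal and spliceosomal RNA. Host genes of this class commonly start in a run of pyrimidines, as ribosomal protein genes do, and several host transcripts are degraded by nonsense-mediated decay when translated.

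The start sites are shown first because pyrimidine runs at the start are a known feature of host genes. Gas5 has 2 RefSeq starts, of which the second (162965297) is shown. Each line below gives 40 bases before and 30 bases from the annotated start, with coordinates in mm9, read from RefSeq promoters of GRCm38.p6 that were found unchanged in mm9 (for Neat1, from mm9 directly). Capitals mark TATAAA or TATATA between 50 and 20 bases before the start, and the longest run of at least 6 pyrimidines (C or T) between 20 bases before and 40 after it.
Neat1, chr19:5845449-5845518, minus strand: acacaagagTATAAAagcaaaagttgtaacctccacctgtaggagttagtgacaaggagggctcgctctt
Malat1, chr19:5802643-5802712, minus strand: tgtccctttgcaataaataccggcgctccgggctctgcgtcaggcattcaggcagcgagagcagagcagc
Gas5, chr1:162965257-162965326, plus strand: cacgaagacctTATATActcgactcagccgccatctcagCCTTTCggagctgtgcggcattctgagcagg
Snhg1, chr19:8797937-8798006, plus strand: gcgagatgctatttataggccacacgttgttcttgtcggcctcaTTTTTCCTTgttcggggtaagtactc
Snhg8, chr3:123211225-123211294, minus strand: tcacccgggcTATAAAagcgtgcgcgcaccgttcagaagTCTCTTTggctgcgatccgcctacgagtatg
Snhg12, chr4:131864553-131864622, plus strand: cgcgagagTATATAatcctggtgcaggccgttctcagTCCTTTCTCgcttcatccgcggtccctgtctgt

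A pyrimidine run stood at the start of Snhg8 (7 bases) and Snhg12 (9) and at the second Gas5 start (6). In Snhg1 a run of 9 began at base 5 counted from the RefSeq start (8797977), so that start itself lay outside it. The GENCODE start of Snhg1 (8797986), used for its locus below, lay within the run. The first Gas5 start (162964732) and those of the 2 nuclear RNAs had none of 6 bases or more. Among 32851 RefSeq promoters, 54.3% held a run of at least 6 bases in the same window, 38.7% of at least 7 and 18.9% of at least 9, so the shorter runs are common. TATAAA or TATATA stood before 4 of these 7 starts, those of Neat1, Snhg8 and Snhg12 and the second of Gas5, against 3.2% of all promoters. These matches describe letters in a window and not binding.

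Neat1 spans chr19:5824708-5845478 on the minus strand (mm9), with annotated transcripts of 20771 and 3004 bases. Malat1 lies beside it at chr19:5795690-5802671 on the same strand, and Gm20417 runs antisense within it at chr19:5797562-5798549. Gas5 lies at chr1:162964553-162968670 on the plus strand, and holds 9 annotated snoRNAs. Zbtb37 (chr1:162938931-162964980, minus strand) starts inside the Gas5 span and overlaps it. Snhg1 lies at chr19:8797986-8800932 on the plus strand, with 8 snoRNAs, and Snhg12 at chr4:131864593-131866939 on the plus strand, with 4. Snhg8 starts at chr3:123211254 on the minus strand. Whether the counting used strand is not given in the sources used here, so reads of Malat1 and of Gm20417, or of Gas5 and of Zbtb37 where they overlap, cannot be told apart.

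Neat1, the paraspeckle RNA, was higher after the meal in lean and in vehicle-injected mice. A bulk liver cannot tell fewer cells of a type from less RNA per cell, and this holds for every value below. Among lean mice, the 3 unfed livers had 13.7, 16.2 and 24.7 RPKM of Neat1 and the 3 fed livers 80.6, 54.2 and 62.3. Each fed liver lay above each unfed one. The means were 65.7 and 18.2 RPKM (log2 fold change 1.85, SE 0.32, limma adjusted p = 0.003), and Neat1 was the only 1 of 5 tested members called in that comparison, in which 23.4% of all 11434 genes tested were called.

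Among vehicle-injected mice, the unfed livers had 8.84, 6.84, 7.52 and 29.8 RPKM of Neat1 and the fed livers 26.1, 57.2, 57.98 and 26.6. The groups overlapped through 1 unfed liver, replicate 4, whose level lay above those of fed replicates 1 and 4. The means were 42.0 fed and 13.2 unfed (log2 fold change 1.80, SE 0.42, limma adjusted p = 0.028), and 1 of 5 members was called against 3.13% of all genes. The 5 replicate 4 libraries of the injected mice carry sample numbers from a later series than the other 15, as the sample descriptions give them. With a term for the series the difference stayed at 1.80 (limma adjusted p = 0.014). Without those 5 the difference was 2.45 (limma adjusted p = 0.0025), and within them, at 1 liver per group, Neat1 was 26.6 RPKM fed and 29.8 unfed. The call was lost when any 1 of fed replicates 2 or 3 (adjusted p = 0.095 and 0.077) or unfed replicates 1, 2 or 3 (0.088, 0.098 and 0.087) was left out.

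Among uninjected mice, the ZT14-unfed livers had 11.3 and 13.4 RPKM of Neat1 and the ZT14-fed livers 26.0 and 28.5. Both fed livers lay above both unfed ones, but the difference missed the threshold (log2 fold change 1.11, SE 0.28, limma adjusted p = 0.059). Every tested member separated between these groups of 2 livers, in one direction or the other. Snhg8 did so at a ratio of means of 0.93, so separation alone says little here. Neat1 passed with only the groups compared (limma adjusted p = 0.011) or a filter at 2 RPKM (0.038). At ZT10 the values were 9.18 and 18.7, which enclose the ZT14-unfed values (ZT14-unfed against ZT10, −0.09, SE 0.28, limma adjusted p = 0.87). None of the 5 tested members was called between ZT10 and ZT14-unfed, against 8.95% of all genes.

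**Figure D1:**
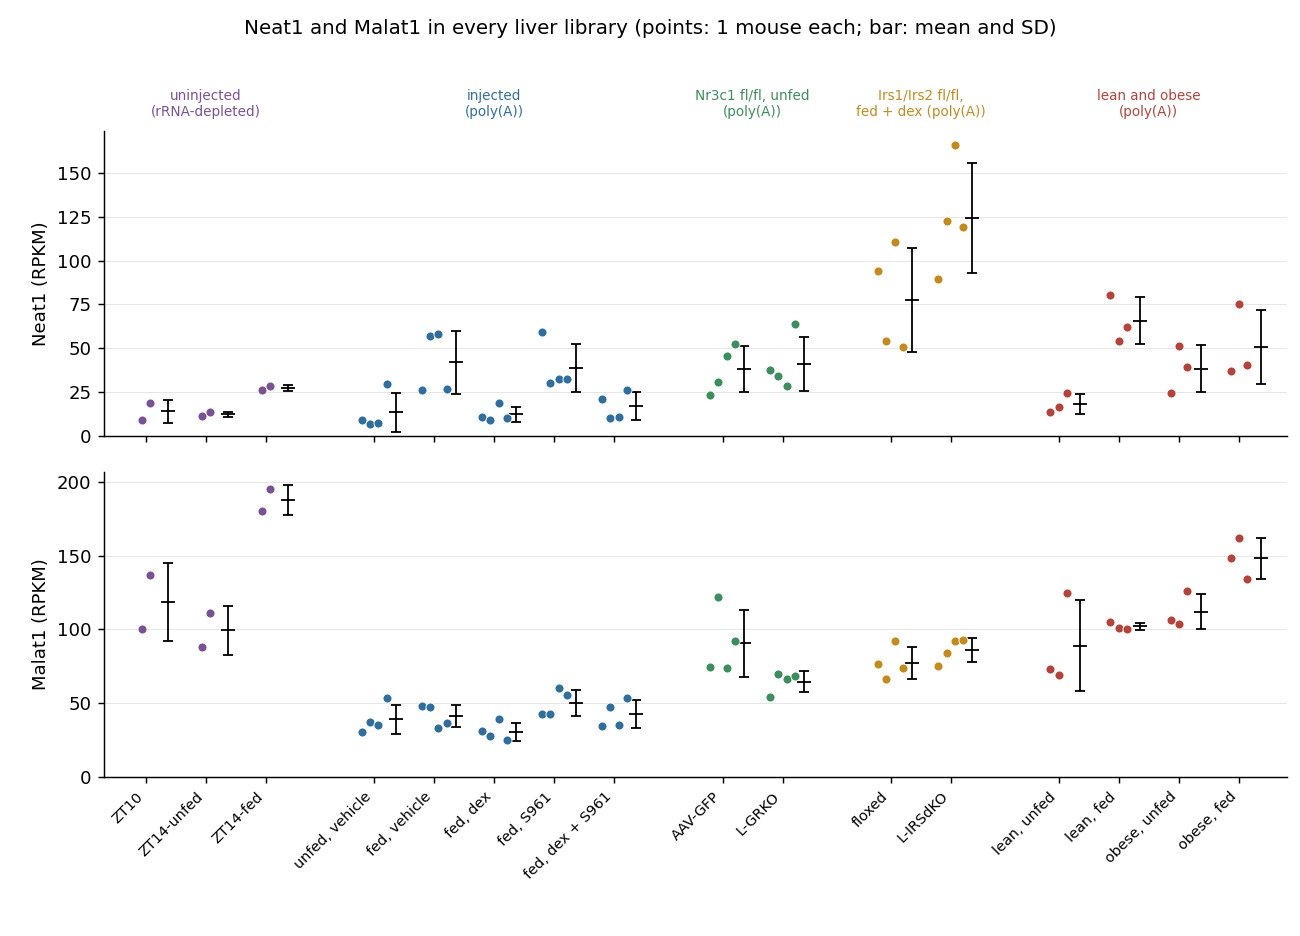
Neat1 and Malat1 levels in RPKM (linear axes from 0), in each of the 54 libraries (points) of the 16 groups, with group means and SD. Neat1 sits at 54.2 to 80.6 RPKM in lean fed livers and at 13.7 to 24.7 in lean unfed ones, and at 8.94 to 18.5 in fed livers given dex against 26.1 to 57.98 in fed livers given vehicle.

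In obese mice no meal difference in Neat1 was called. The obese unfed livers had 24.4, 51.2 and 39.5 RPKM of Neat1 and the obese fed livers 37.2, 75.3 and 40.3. These groups overlapped, and the meal difference in obese mice was 0.39 (SE 0.32, 95% interval −0.32 to 1.11, limma adjusted p = 0.49), with 0 of 5 members called against 7.65% of all genes. Unfed obese livers exceeded unfed lean livers by 1.03 (SE 0.32) without passing the test (limma adjusted p = 0.09), with 0 of 5 members called against 5.22%. That difference was called when obese unfed replicate 1 was left out (1.32, limma adjusted p = 0.025), and Malat1 in its place without lean unfed replicate 3 (0.64, limma adjusted p = 0.02).

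The difference between the meal responses of obese and lean mice was itself tested. For Neat1 it was −1.45 (SE 0.46, 95% interval −2.46 to −0.44, limma adjusted p = 0.18). A smaller response in obese livers was thus not called once all genes were counted. It was called in 0 of 5 members and in 0.743% of all genes. Fed obese and fed lean livers had Neat1 means of 50.9 and 65.7 RPKM (−0.42, SE 0.32, limma adjusted p = 0.5), with 0 of 5 members called against 0.499%.

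Dex before the meal lowered Neat1 in fed livers. The fed livers given dex had 10.8, 8.94, 18.5 and 10.3 RPKM, all below the fed vehicle livers at 26.1 to 57.98. The means were 12.2 and 42.0 RPKM (log2 fold change −1.70, SE 0.42, limma adjusted p = 0.031), and Neat1 was the 1 member of 5 called, against 3.19% of all genes. The meal and the dex comparison share the 4 fed vehicle livers, so they are not independent. Without the 5 replicate 4 libraries the dex difference was −1.82 (limma adjusted p = 0.0084). It lay above the threshold without fed vehicle replicate 2 or 3 (0.11 and 0.087) or dex replicate 1, 2 or 4 (0.091, 0.11 and 0.051), and also without a filter on low values (0.058) or with median-ratio scaling (0.051).

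With S961 no difference in Neat1 was called. Fed livers given S961 had 59.2, 30.1, 32.5 and 32.6 RPKM of Neat1, within or just above the range of fed vehicle livers. The difference was −0.07 (SE 0.42, 95% interval −0.95 to 0.81, limma adjusted p = 0.97), an interval that leaves room for changes in either direction, with 0 of 5 members called against 1.9% of all genes. Fed livers given dex and S961 had 21.2, 10.0, 10.9 and 26.2 RPKM, and the highest of them overlapped the lowest fed vehicle liver. The difference from vehicle was −1.28 (SE 0.42, limma adjusted p = 0.058), with 0 of 5 members called against 10.6% of all genes. With a term for the library series Neat1 passed (limma adjusted p = 0.037), and without the 5 replicate 4 libraries it did too (−1.70, adjusted p = 0.0095). Without fed vehicle replicate 4 or dex plus S961 replicate 4 it passed the threshold (−1.46 and −1.52, limma adjusted p = 0.049 and 0.043). The interaction of dex and S961 on Neat1 was 0.49 (SE 0.6, limma adjusted p = 1), and limma called 0% of the 11251 genes for it, with 513 at an unadjusted p below 0.05. Without the 5 replicate 4 libraries, or without dex replicate 4, 4 genes were called.

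Unfed L-GRKO livers and their controls showed no detectable difference in Neat1. The GFP controls had 23.4, 30.8, 45.6 and 52.5 RPKM and L-GRKO livers 37.6, 33.9, 28.5 and 63.6. The groups overlapped along most of their range (log2 fold change 0.10, SE 0.28, 95% interval −0.51 to 0.72, limma adjusted p = 0.89), and 0 of 5 members was called against 6.68% of all genes. This comparison was made without a meal and without dex.

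L-IRSdKO livers, all fed and given dex, had 89.3, 122.8, 165.9 and 119.3 RPKM of Neat1, and their floxed controls 94.3, 54.2, 110.8 and 50.9. Means were higher in L-IRSdKO but 1 of its livers lay below 2 of the controls, and the difference was not called (0.72, SE 0.28, limma adjusted p = 0.1; 0 of 5 members against 17.4% of all genes). Summed Kupffer cell markers ranged over 124 to 217 RPKM in controls and 202 to 253 in L-IRSdKO livers, with 1 of 6 called higher (Clec4f). Endothelial markers ranged over 88.9 to 116 and 108 to 143 RPKM, with 3 of 5 called higher (Stab2, Pecam1 and Lyve1). Stellate cell markers ranged over 90.4 to 110 and 109 to 129, with 1 of 4 tested called higher (Dcn). In the other direction, 1 of 5 hepatocyte (Ttr), 1 of 3 cholangiocyte (Krt7) and 1 of 3 red blood cell markers (Alas2) were called lower. The 1 lymphocyte marker tested was not called. The part of these cells in the Neat1 values was not tested.

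Markers of other liver cells moved in some of the comparisons in which Neat1 was called. With the meal in vehicle-injected mice, the 6 Kupffer cell markers summed to 39.0 to 50.6 RPKM unfed and 53.8 to 81.6 fed, and Adgre1 (0.81) and Csf1r (0.76) were called higher. With the meal in lean mice, they summed to 39.7 to 49.1 RPKM unfed and 30.3 to 39.4 fed with 0 of 6 called, and endothelial markers fell from 54.3 to 65.6 to 39.3 to 46.3 RPKM with 4 of 5 called lower. Neat1 was higher fed in both. With dex, endothelial markers summed to 60.5 to 71.2 RPKM under vehicle and 50.1 to 62.6 under dex, and Kdr (−0.82) and Clec4g (−0.47) were called lower. The Kupffer cell sum was 53.8 to 81.6 RPKM under vehicle, 35.8 to 57.8 under dex and 37.0 to 55.2 under S961, where Neat1 stayed at 30.1 to 59.2. In unfed obese livers 4 of 5 endothelial markers were called lower than in lean ones. No marker of the 7 cell types was called with the meal in uninjected mice. Of all genes, 3.13% were called with the meal in vehicle-injected, 23.4% in lean and 6.77% in uninjected mice. The shares were 3.19% with dex and 5.22% for unfed obese against lean livers. The part of these cells in the Neat1 values was not tested.

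**Figure D2:**
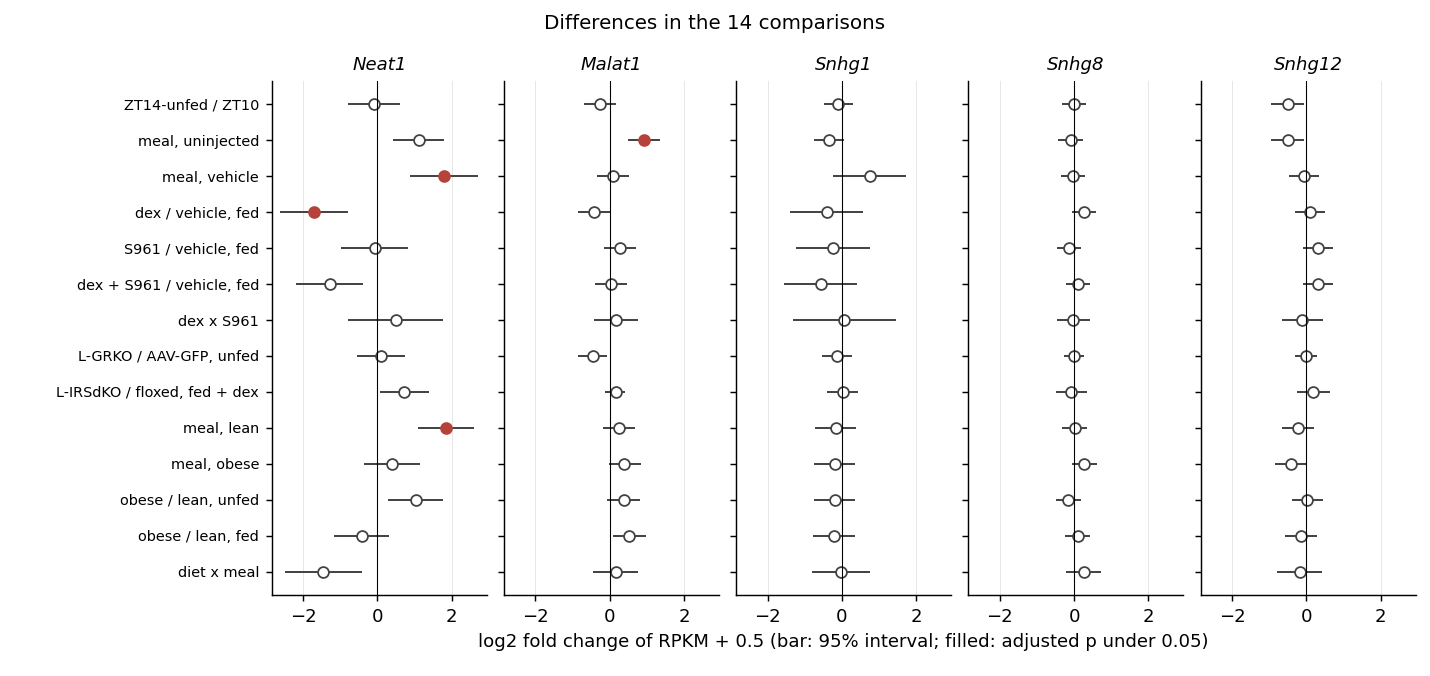
Log2 fold change with its 95% interval for each of the 5 measured members in the 14 comparisons, filled points marking a limma adjusted p below 0.05. The 4 filled points are Neat1 with the meal in vehicle-injected (1.80) and lean mice (1.85), Neat1 with dex (−1.70) and Malat1 with the meal in uninjected mice (0.92).

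The table holds 2 identifiers for Neat1, and their ratio differed by library type. NR_131212, the other identifier, stood at 0.634 to 0.971 of NR_003513 in the 6 libraries freed of ribosomal RNA and at 0.155 to 0.24 in all 48 poly(A) libraries, with a median of 0.166. The 2 ranges did not overlap. The annotated short and long transcripts have a length ratio of 0.145, and the table does not say which span belongs to which identifier. Library type and experiment cannot be told apart here.

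Among the 6 libraries freed of ribosomal RNA, the ratio was 0.634 to 0.648 in the fed livers and 0.836 to 0.971 in the others. The ZT14-unfed livers had 10.8 and 11.2 RPKM of the other identifier and the ZT14-fed livers 16.4 and 18.4, a difference of 0.64 on the log2 scale against 1.11 by the identifier used (limma adjusted p = 0.23 and 0.059). In poly(A) libraries the other identifier gave 1.51 for the meal in vehicle-injected mice (limma adjusted p = 0.037) and 1.54 in lean mice (0.0064), both called, and −1.31 for dex (0.066), which was not. The annotated short transcript lies within the span of the long one, so the same reads can count for both identifiers. Their calls are not independent measurements.

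**Figure D3:**
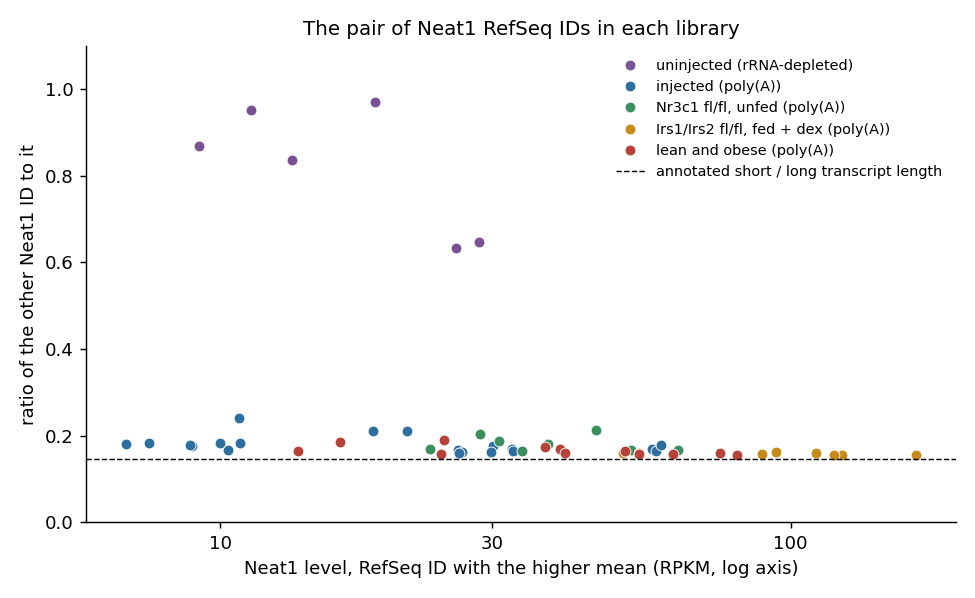
Ratio of the other Neat1 identifier to the one used, against the level of the one used in RPKM on a log axis, for each of the 54 libraries, with a dashed line at the annotated short-to-long length ratio of 0.145. The 6 libraries freed of ribosomal RNA lie at 0.634 to 0.971 and the 48 poly(A) libraries at 0.155 to 0.24.

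One GR site lay near the Neat1 start and overlapped a FOXO1 site. The GR site, chr19:5850181-5850360 (mm9), was centred at −4792 bases from the start and the FOXO1 site, chr19:5850123-5850302, at −4734. They share 122 bases, both overlap a DHS, and both lie in the 3′ UTR of Frmd8, the next gene on the same strand. Short stretches of both are shown, with capitals for the receptor half-site AGAACA in the first and for the forkhead core TGTTT in the second, which holds 2 overlapping matches. Both matches lie on the minus strand, so their complements are capitalised.
GR site, chr19:5850229-5850256, plus strand: tcaagagtgcaTGTTCTtgagtagggct
FOXO1 site, chr19:5850123-5850150, plus strand: ttttacagaaAAACAAACAgtttccaaa
AGAACA on either strand was found in 28.7% of GR sites, 20.9% of FOXO1 sites and 14.7% of DHSs on the 4 chromosomes of the members, and TGTTT in 62.3%, 72.4% and 51.4%, so that neither match sets these sites apart.

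Within 50 kb of the start, Neat1 had 2 GR sites, 1 FOXO1 site and 10 DHSs. Malat1 had 1 GR and 1 FOXO1 site, the same pair as for Neat1, and 7 DHSs. Gas5, measured from its GENCODE start (162964553), had 2 GR, 1 FOXO1 and 4 DHS, and Snhg12 had 2, 2 and 12. Snhg1 and Snhg8 had no GR or FOXO1 site and 9 and 3 DHSs. Of 19783 genes, 33.8% had a GR site within 50 kb, 35.4% a FOXO1 site and 88.4% a DHS, so a site at this distance is common. A FOXO1 site at chr4:131864378-131864557 was centred 126 bases before the Snhg12 start and overlapped a DHS. No site was assigned to a gene by these distances.

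Malat1 was called with the meal in uninjected mice. Among uninjected mice the ZT14-unfed livers had 87.8 and 111.2 RPKM of Malat1 and the ZT14-fed livers 180.4 and 195.0. Both fed livers lay above both unfed ones and above the ZT10 livers at 100.2 and 137.2. Every tested member separated between the fed and unfed groups here, so the separation is only a description. The meal difference was 0.92 (SE 0.17, limma adjusted p = 0.026), and Malat1 was the 1 member of 5 called against 6.77% of all genes. It lost the call without ZT14-unfed replicate 1 (adjusted p = 0.056), ZT14-fed replicate 1 (0.095) or ZT14-fed replicate 2 (0.19), and without a filter on low values (0.11) or with median-ratio scaling (0.78, adjusted p = 0.06), which removes a median shift of 0.12 over all genes. The corresponding shift was −0.14 for dex plus S961 and within 0.1 of 0 in the other comparisons.

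In poly(A) libraries Malat1 was not called in any comparison. Fed vehicle livers had 48.1, 47.6, 33.3 and 36.5 RPKM and unfed vehicle livers 30.1, 37.5, 34.9 and 53.4, which overlapped (0.10, SE 0.19, limma adjusted p = 0.83). Under dex the values were 31.1, 27.5, 39.1 and 25.2 (−0.42, SE 0.19, limma adjusted p = 0.25), and 3 of the 4 lay below all fed vehicle livers. Lean fed livers had 105.0, 101.1 and 100.03 RPKM and lean unfed livers 73.3, 69.4 and 124.6 (0.25, SE 0.18, limma adjusted p = 0.37), and without lean unfed replicate 3, the highest of them, the difference was called (0.51, limma adjusted p = 0.013). Malat1 was higher in each fed obese liver, at 148.7, 162.2 and 133.9 RPKM, than in each fed lean one, a difference of 0.53 that missed the threshold (SE 0.18, limma adjusted p = 0.16). GFP controls had 74.8, 122.2, 73.6 and 92.2 RPKM and L-GRKO livers 54.2, 69.6, 66.3 and 68.7. Each L-GRKO liver lay below each control, and the difference of −0.46 (SE 0.16) was not called (limma adjusted p = 0.12). The L-IRSdKO comparison gave 0.16 (SE 0.11, limma adjusted p = 0.36).

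The snoRNA hosts Snhg1, Snhg8 and Snhg12 were called in none of the 14 comparisons in the main fit, without terms for series or replicate. With a term for the library series Snhg1 was called for the meal in vehicle-injected mice and for dex plus S961. With a replicate block it was called for that meal. Snhg12, the host of Snora16a, Snora44, Snora61 and Snord99, had 4.82 and 3.61 RPKM at ZT10, 2.34 and 3.33 at ZT14-unfed and 1.76 and 1.91 at ZT14-fed. The 3 groups did not overlap, which says little for groups this small, and neither step passed the test (−0.50 for time, SE 0.18, and −0.50 for the meal, SE 0.18, limma adjusted p = 0.13 for each). With the meal in obese mice Snhg12 went from 10.2, 8.47 and 10.8 RPKM to 5.77, 9.49 and 6.86 (−0.41, SE 0.18, limma adjusted p = 0.18), and with the meal in lean mice the difference was −0.23 (SE 0.18, limma adjusted p = 0.39).

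Snhg1, the host of a cluster of C/D box snoRNAs, differed in the injected mice between library series. It had 1.88 to 6.29 RPKM in the 5 replicate 4 libraries and 7.93 to 14.7 in the other 15, with no overlap, whereas the other 4 measured members overlapped between the series. How many of all genes separated the series in this way was not counted, so this is not read as particular to Snhg1. Fed vehicle livers had 13.97, 14.4, 13.9 and 6.29 RPKM and unfed vehicle livers 11.5, 10.2, 8.12 and 1.88. The groups overlapped, and the difference without a term for the series was 0.75 (SE 0.46, limma adjusted p = 0.4). With that term it was called (limma adjusted p = 0.023), as was dex plus S961 against vehicle (−0.57, adjusted p = 0.044). Without the 5 replicate 4 libraries they were 0.49 (limma adjusted p = 0.12) and −0.57 (0.059). In uninjected and lean mice the meal differences of Snhg1 were −0.34 (SE 0.16, limma adjusted p = 0.21) and −0.17 (SE 0.24, limma adjusted p = 0.67), below 0 in both.

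Snhg8, the host of Snora24, had the smallest SD of log2 values over all libraries in 3 of the 4 poly(A) experiments (0.22 injected, 0.13 Nr3c1 fl/fl and 0.19 diet). In the IRS experiment Malat1 had a smaller one (0.18 against 0.26). The Snhg8 meal differences were −0.09 (95% interval −0.40 to 0.22) in uninjected, −0.03 (−0.32 to 0.26) in vehicle-injected, 0.02 (−0.29 to 0.33) in lean and 0.28 (−0.03 to 0.59) in obese mice. L-GRKO livers and their controls both averaged 11.4 RPKM of Snhg8 (95% interval of the difference −0.24 to 0.24).

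**Figure D4:**
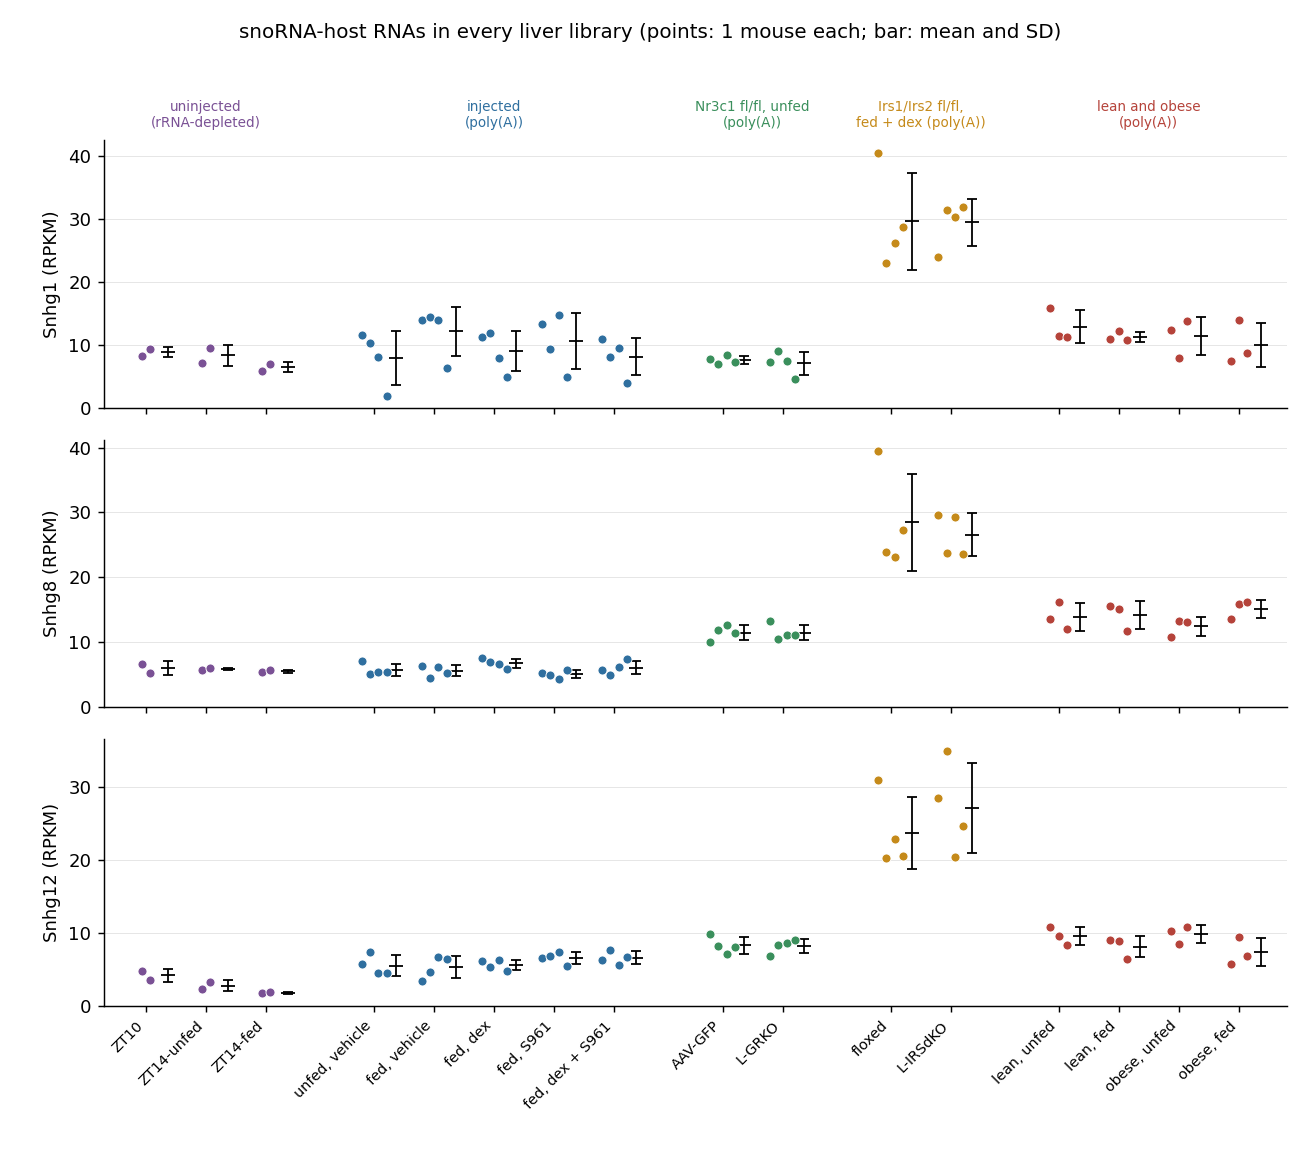
Snhg1, Snhg8 and Snhg12 levels in RPKM (linear axes from 0) in each of the 54 libraries (points) of the 16 groups, with group means and SD. The 5 lowest Snhg1 values of the injected mice, 1.88 to 6.29 RPKM, are the replicate 4 libraries, and all 3 hosts lie highest in the IRS experiment, at 20.4 to 40.5 RPKM.

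Across experiments the order of levels differed between members. Neat1 had medians of 16.0, 23.7, 35.7, 103 and 39.9 RPKM in uninjected, injected, Nr3c1 fl/fl, IRS and diet livers, and Malat1 of 124, 38.3, 71.6, 80.3 and 106. Malat1 was thus lowest in the injected mice and Neat1 in the uninjected ones. Snhg1 had medians of 7.68, 9.83, 7.32, 29.6 and 11.3 RPKM, Snhg8 of 5.69, 5.76, 11.2, 25.6 and 13.6, and Snhg12 of 2.83, 6.22, 8.34, 23.9 and 8.99. Each host was above its level in every other library in all 8 libraries of the IRS experiment, in both genotypes. In that experiment the median gene was also higher and the most abundant genes took a smaller share, as given above, and the part of that in the host levels was not tested.

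The snoRNAs of these hosts were measured as rows of their own. Most were low outside the IRS experiment, with Snord22 in libraries freed of ribosomal RNA an exception. Snord22, from Snhg1, had a median of 27.2 RPKM in libraries freed of ribosomal RNA and 1.47 to 9.86 in the 4 poly(A) experiments. Snora16a, from Snhg12, had 4.08 and 0 to 3.59. Snord47 was the only row here from the Gas5 locus, with medians of 2.73 to 7.16 RPKM over the 5 experiments. Snora24 from Snhg8 lay at 0.857 to 1.75 outside the IRS experiment and at 11.5 in it. These short RNAs are largely lost from standard libraries and cannot be told apart from reads of unspliced host introns, so no level of a host was read from them.

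Neat1 and Malat1, neighbours on chr19, had a correlation of 0.50 over the 48 poly(A) libraries, on log2 values centred on each experiment. Snhg1 and Snhg12 had 0.25, and Malat1 had −0.25 with Snhg8 and −0.18 with Snhg1. The libraries share experiments, depth and series, so these are descriptions. The genes most like Neat1 among 9737 were Zkscan8 (0.82), Tmem125 (0.76) and Srsf1 (0.74), the last an SR splicing factor, and 99% of genes had a correlation below 0.59. For Malat1 they were Cyp4f17 (0.59), Shtn1 (0.58) and Chmp1b (0.57). For Snhg1 the highest were Sla2 (0.81) and Mcts1 (0.81), where the 99th percentile was 0.68 and the library series divides the values. For Snhg8 and Snhg12 the highest were 0.52 (Apoa1) and 0.55 (Gpcpd1).

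Genes that work with the members were followed as lists. Among 8 core proteins of snoRNA particles, 6 were higher after the meal in lean mice and none lower, with a median of 0.47 against 0.08 over all genes and 23.4% of all genes called either way. Nop58 (1.05, limma adjusted p = 0.0066), Nop56 (0.97, 0.0096) and Gar1 (0.76, 0.023) led them. Nop58 and Nop56 are scaffold proteins of C/D box particles and Gar1 belongs to H/ACA particles. Nop58 and Nop56 also rose in vehicle-injected mice (0.80 and 0.75, limma adjusted p = 0.031 and 0.042) and in obese mice (0.88 and 0.82, 0.035 and 0.045), while none of the 6 tested was called in uninjected mice. Of all genes, 3.13%, 7.65% and 6.77% were called in these comparisons, in that order.

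SR and speckle proteins, which share the compartment of Malat1, moved in part with food. Among 14, 4 were higher and 1 lower after the meal in lean mice, with Srsf7 (0.80, limma adjusted p = 0.0018), Srsf3 (0.77, 0.013) and Srsf1 (0.72, 0.00041) leading, and with a median of 0.21 against 0.08 (5 of 14 called either way, against 23.4% of all genes). In obese mice 1 was higher and none lower, against 7.65% of all genes, and in vehicle-injected mice 1 was higher and 1 lower, against 3.13%. In uninjected mice 4 were higher and 1 lower, with Srsf7 (1.06, limma adjusted p = 0.0053), Srrm2 (0.96, 0.028) and Srsf2 (0.66, 0.03) leading, and with a median of 0.37 against 0.12 (6.77% of all genes called either way). Clk1, a kinase of SR proteins, was the one that was lower in both (−0.63 and −0.56, limma adjusted p = 0.0012 and 0.048) and also in vehicle-injected mice (−0.43, 0.038).

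Other snoRNA-host RNAs did not move as a group. With the meal in lean mice 4 of 11 were higher, among them Snhg17 (1.02, limma adjusted p = 0.0013), Snhg15 (0.90, 0.0078) and Snhg7 (0.88, 0.0044), and Zfas1 was lower (−0.76, 0.0041), with a median of 0.07 against 0.08 over all genes (5 of 11 called either way, against 23.4% of all genes). Zfas1 was also lower fed in uninjected (−0.90, limma adjusted p = 0.046) and obese mice (−0.63, 0.025). Snhg3 was lower fed in uninjected mice (−1.16, limma adjusted p = 0.02) and lower in unfed obese than unfed lean livers (−0.78, 0.014), and it was higher with dex plus S961 than with vehicle, at 38.1 against 12.8 RPKM (1.55, limma adjusted p = 0.00014). Under dex alone none of 11 was called, against 3.19% of all genes.

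Paraspeckle proteins, the partners of Neat1, were called at most 1 at a time. Over all genes, 23.4% were called with the meal in lean mice, 6.77% in uninjected, 7.65% in obese and 3.13% in vehicle-injected mice. The shares were 3.19% with dex, 8.95% from ZT10 to ZT14-unfed, 10.6% with dex plus S961 and 17.4% in L-IRSdKO livers. No count in this paragraph was read as a result about its list. With the meal, Pspc1 of 12 was higher in lean mice (0.77, limma adjusted p = 0.0094) and Smarca4 of 11 in uninjected mice (0.51, 0.035), and 0 of 12 was called in vehicle-injected or obese mice. With dex 0 of 12 was called. Hnrnpk was lower at ZT14-unfed than at ZT10 (−0.52, limma adjusted p = 0.02), and Cpsf6 was lower with dex plus S961 (−0.42, 0.045) and in L-IRSdKO livers (−0.37, 0.036). Among 10 nonsense-mediated decay factors, Upf1 was higher after the meal in lean (0.39, limma adjusted p = 0.027) and uninjected mice (0.66, 0.035), and Smg1 (−0.49, 0.013) and Smg6 (−0.40, 0.0061) were lower in lean mice. Among 22 messages with a 5′ terminal pyrimidine tract, mostly ribosomal proteins, 2 were called with the meal in lean mice and none in the other 3 meal comparisons.

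Of 10 other nuclear RNAs, none of the 6 tested was called with the meal in lean, obese or vehicle-injected mice. Of all genes, 23.4%, 7.65% and 3.13% were called there. The shares were 8.95% from ZT10 to ZT14-unfed, 6.77% for the uninjected meal, 6.68% for L-GRKO and 17.4% for L-IRSdKO. Mir22hg was lower at ZT14-unfed than at ZT10 (−1.02, limma adjusted p = 0.0065) and lower again after the meal in uninjected mice (−0.65, 0.024), and Firre was higher (0.63, 0.035). Tug1 (0.54, limma adjusted p = 0.039) and Mir22hg (0.40, 0.046) were higher in L-GRKO livers, in which 3 of 3 red blood cell markers were also called higher and summed to 330 to 622 RPKM against 222 to 288. H19, an imprinted fetal liver RNA, averaged 19.2 RPKM in L-IRSdKO livers and 0.087 in controls (5.01, SE 0.24, limma adjusted p = 6.5e-05).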

How the data were processed

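RNA was sequenced from 54 mouse livers. The authors aligned reads to mm9 with STAR, and HOMER and DESeq2 are also named in the submitters' processing notes. They deposited RPKM per RefSeq identifier, and the counter is not given in the sources used here. Of 35707 identifiers, 35407 were paired with a symbol, and 0 value columns were left unused. The deposited values carry no counts, and the smallest steps of 3183 genes under 1300 bases gave implied depths of 6.42 to 13.4 (in units of 1000000 reads) for injected mice, 3.61 to 4.45 for the IRS experiment and 16.8 to 61.8 for the others. In the Nr3c1 fl/fl experiment a step could be 1 end of a read pair.

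GR (10446), FOXO1 (8546) and DHS (83592) sites were used as positions. Per the methods, GR and FOXO1 sites are those shared by replicates in unfed livers. The deposited site files hold no scores.

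Each experiment was fitted apart with limma 3.58.1 (R 4.3.3), all groups together, on log2(RPKM + 0.5), keeping genes that averaged 0.5 RPKM or more in the experiment, with a variance trend and Benjamini-Hochberg adjustment over all genes and a threshold of 0.05. Fold changes are on that scale and understate changes of low genes. Each liver is from 1 mouse. The share of all genes whose groups did not overlap was not counted in any comparison. Simulated libraries with 200 genes of known change were used to test the procedure. Named genes are the members, the label checks and up to 3 called genes of largest change per list; others named from counts of 5 or fewer were chosen after their values were seen. Motifs were searched on both strands. The members and lists were chosen with earlier results of these data known. Alternatives changed the pseudocount, filter, scaling, identifier choice, variance trend, replicate block, groups fitted, threshold and libraries, and the other Neat1 identifier and the removal of replicate 4 were chosen after seeing the data. The S961 dose label drifts between samples (S961 to S965) and its unit differs between the labels and the methods, so no dose is given. H3K27Ac libraries and per-library occupancy were not analysed here. One gene of the likeness lists is not reported here.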

Additional observations from a re-analysis of the deposited data

Results flagged for a closer look

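The test covered 45 groups of 4 livers, one for each measured member and group. In 4 of them, 1 library had a gap to the nearest other that was large for the range of the group. Chance alone passes the cut-off used in about 1 group of 20. Neat1 in fed livers given S961 was 59.191 RPKM in replicate 1 and 30.1 to 32.6 in the other 3. Neat1 in unfed vehicle livers was 29.801 RPKM in replicate 4 and 6.84 to 8.84 in the other 3. Snhg1 in fed vehicle livers was 6.285 RPKM in replicate 4 and 13.9 to 14.4 in the others. Snhg8 in unfed vehicle livers was 7.06 RPKM in replicate 1 and 5.04 to 5.33 in the others. The replicate 4 livers belong to the later library series.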

How the results depend on the processing

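Alternatives moved the number of members called by more than 1.5 times in 5 of the 14 comparisons, and in 2 more, the lean meal and unfed obese against lean, when single libraries were left out. For dex, 0 members were called without a filter, with median-ratio scaling, with only the groups compared, at a threshold of 0.01 and with Neat1 by its other identifier, an alternative chosen after seeing the data (Neat1 0.058, 0.051 and 0.051 in the first 3). For dex plus S961, 1 was called with the replicate block, 2 with a term for the library series (Neat1 0.037, Snhg1 −0.57 at 0.044) and 1 without the 5 libraries of replicate 4 (Neat1 −1.7 at 0.0095), a removal chosen after seeing the data. For the meal in uninjected mice, 0 were called without a filter, with median-ratio scaling (Malat1 0.78 at 0.06) and at 0.01, and 2 with a filter at 2 RPKM (Neat1 0.038 too), with the block or with only the groups compared (Neat1 0.011). For the meal in vehicle-injected mice, 2 were called with the block and with the series term (Snhg1 in both, with a log2 fold change of 0.75). There, 0 were called with only the groups compared (Neat1 0.074) or at 0.01. For fed obese against fed lean, 1 was called with only the groups compared (Malat1 0.53 at 0.016). The values after "at" or alone are limma adjusted p-values. The cause of these changes was not tested.

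Deviations from group means were correlated between same-numbered libraries. The median was −0.04, 0.04, −0.04 and −0.01 in the diet, Nr3c1 fl/fl, IRS and uninjected experiments. In injected mice it was 0.14 (−0.12 to 0.61), against −0.05 (−0.43 to 0.46) for libraries of different number. Replicate 4 is also the later library series in those mice, so the numbers are not treated there as free of shared structure. With the replicate block Neat1 passed for dex plus S961 (limma adjusted p = 0.048) and for the uninjected meal (0.048), and Snhg1 for the vehicle meal (0.029).

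With each library left out in turn, the members called ranged from 0 to 1 for dex, dex plus S961, unfed obese against lean, and the meals of uninjected and vehicle-injected mice, and from 1 to 2 for the meal in lean mice. Neat1 ranged from 1.59 to 2.27 for the vehicle meal and from −1.91 to −1.51 for dex, and Malat1 from 0.75 to 1.09 for the uninjected meal. Without lean unfed replicate 3, Malat1 was called for the lean meal (0.51) and for unfed obese against lean (0.64).

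Differences that changed sign were near 0 and not called. Without replicate 4 they were Malat1 (−0.13) and Snhg8 (−0.01) for dex plus S961. With median-ratio scaling they were Malat1 for the vehicle meal (−0.01), Neat1 for S961 (0.01), Snhg1 for L-IRSdKO (−0.01), Snhg12 for unfed obese against lean (−0.04, and −0.03 with quantile normalization), Snhg1 for diet by meal (0.04, quantile 0.02), Snhg8 for L-GRKO (−0.09, quantile −0.09) and for the lean meal (−0.07, quantile −0.07), and for time Neat1 (0.03, quantile 0), Snhg1 (0.02, quantile 0.02) and Snhg8 (0.11, quantile 0.1). With libraries left out, the ranges that crossed 0 were, for Malat1, −0.08 to 0.13 (dex plus S961), −0.11 to 0.31 (diet by meal) and −0.01 to 0.26 (vehicle meal); for Neat1, −0.13 to 0.28 (L-GRKO), −0.29 to 0.12 (S961) and −0.58 to 0.4 (time). For Snhg1 they were −0.24 to 0.05 (L-GRKO), −0.09 to 0.18 (L-IRSdKO), −0.51 to 0.08 (S961), −0.24 to 0.36 (dex by S961), −0.28 to 0.17 (diet by meal), −0.44 to 0 (obese meal), −0.34 to 0.04 (unfed obese) and −0.29 to 0.1 (time). For Snhg12 they were −0.08 to 0.07 (L-GRKO), −0.07 to 0.22 (dex, 0.27 without all of replicate 4), −0.22 to 0.06 (dex by S961, −0.37 without all of replicate 4), −0.18 to 0.1 (vehicle meal), −0.33 to 0 (fed obese) and −0.06 to 0.13 (unfed obese). For Snhg8 they were −0.07 to 0.05 (L-GRKO), −0.16 to 0.09 (L-IRSdKO), −0.11 to 0.08 (dex by S961), −0.08 to 0.15 (lean meal), −0.09 to 0.07 (vehicle meal), −0.02 to 0.18 (fed obese), −0.01 to 0.2 (dex plus S961, replicate 4 included) and −0.18 to 0.17 (time).

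At 20 kb the GR sites were 1 for Neat1 and 0 for the others, and at 100 kb 3 for Neat1, Gas5 and Snhg12, 2 for Malat1 and 0 for Snhg1 and Snhg8. FOXO1 sites at 20 kb were 1 for Neat1 and Snhg12, and at 100 kb 1 for Neat1, Malat1 and Gas5 and 2 for Snhg12. DHSs at 20 kb were 2, 4, 1, 4, 3 and 3 for Neat1, Malat1, Gas5, Snhg1, Snhg8 and Snhg12, and at 100 kb 18, 17, 11, 16, 3 and 17.

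Groups of 2 to 4 livers limit what can be called, the depth used is that implied by the values, and the low snoRNAs rest on few reads.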
